A study of Homo sapiens with 4 samples.

Results

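The mitotic spindle and checkpoint genes considered here are 42 listed genes that build the spindle, attach chromosomes to it and time their separation. They were found by gene symbol among the named probe sets, with the probe set of highest mean standing for a gene. Of the 42, 32 genes were measured, each by 1 probe set, out of 14884 named genes in all. CENPE, CENPF, NCAPD2, NCAPG, NCAPH, NUF2, SPC24, SPC25, TPX2 and UBE2C had no probe set that named them alone and are not analysed here. PTTG1 was measured but lay below the filter on low signal, so 31 genes entered the test across all 7442 genes that passed it.

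RNA came from ARP-1 and MM.1S, established human myeloma lines (a plasma cell cancer), with 1 whole-transcript array for each line and condition. In the MIF-KO condition cells carried a lentiviral short hairpin RNA against MIF, a secreted inflammatory cytokine, and in the CTR-KO condition they carried a control hairpin. All 4 cultures were sorted for the green fluorescent marker of the virus and grown in the same medium with serum. The hairpin reduces the MIF transcript and leaves the gene in place, so KO stands for a knockdown, and nothing in the labels tells of replicate cultures or clones. The titles and genotype labels of both ARP-1 arrays give the same condition, while their free-text descriptions name the opposite condition, and arrays are called here by their titles.

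The targeted gene followed the titles. MIF had an intensity of 541 on the MIF-KO array against 1092 on the CTR-KO array in ARP-1, and 405 on the MIF-KO array against 1012 on the CTR-KO array in MM.1S. Of 9 plasma cell markers 6 were measured, and IRF4, a transcription factor of plasma cells, lay between 11.8 and 12.1 on the log2 scale on the 4 arrays. XBP1, the secretory transcription factor, lay between 9.86 and 10.4. The surface markers were less even: SDC1 had 7.52 in MIF-KO against 8.88 in CTR-KO in ARP-1 and 8.88 against 8.40 in MM.1S, and CD38 had 5.39 against 6.83 in ARP-1 and 5.81 against 5.36 in MM.1S. Both were thus lowest or near lowest on MIF-KO ARP-1, and the part of this in the results below was not tested. SLAMF7 had 6.93 in MIF-KO against 6.90 in CTR-KO in ARP-1 and 6.33 against 5.96 in MM.1S. POU2AF1 lay between 5.03 and 5.22, near the filter value of 4.97. The summed intensity of the 6 markers was 6082 in MIF-KO against 5249 in CTR-KO in ARP-1, and 5530 against 5426 in MM.1S. Most of this sum is IRF4 and XBP1, so it does not reflect SDC1 and CD38. Of markers of other cells, CD2, the 1 of 4 T cell markers measured, lay between 3.33 and 3.59. The 3 myeloid and 1 stromal markers measured were below the filter on low signal, and no erythroid marker was measured. Of the epithelial markers EPCAM lay between 2.88 and 3.03, KRT8 between 4.8 and 5.15 and KRT18 between 7.33 and 7.67.

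Cells enter mitosis when cyclin-dependent kinase 1, bound to A and B cyclins, becomes active, and polo and Aurora kinases then separate the spindle poles and correct chromosome attachments. The spindle checkpoint, run by BUB and MAD proteins at kinetochores, holds the anaphase-promoting complex and its activator CDC20 back until every chromosome is attached. Most genes of this set are transcribed late in the cell cycle through promoter elements named CHR (cell cycle genes homology region) and CCAAT boxes, which are bound by the DREAM and MYB-MuvB complexes with FOXM1, and by NF-Y. Myeloma lines divide continuously in culture.

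These shared promoter elements are shown first. The members were not picked by promoter sequence, but the elements are known from genes of this kind. A high share was therefore foreseeable and is given as a description of the set. RefSeq promoters (GRCh38.p14, 250 bases before to 50 after each start) were found for 28 of the 32 measured genes and searched on both strands for TTTGAA or TTCGAA as the CHR and for CCAAT. A CHR was present in 21 of the 28 (75%), against 11.5% of the promoters of 5948 tested genes with an entry and 16.6% of all 27305 promoters in the table. CCAAT was present in 21 of the 28 (75%), against 37.3% of the promoters of tested genes and 35.7% of all promoters. Both motifs stood together in 16 of the 28 (57.1%), against 5.14% of the promoters of tested genes. In 13 of the 28 (46.4%) the CHR began within 40 bases before the start, against 1.58% of the promoters of tested genes; that window was chosen after the positions were seen. A match to these letters is a description of the window and not evidence of binding.

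The 130 bases before the start are printed for 6 genes, 5′ to 3′ on the gene's strand, with CHR and CCAAT matches of either strand in capitals. KIF4A, HMMR and CCNB2 were below CTR-KO in ARP-1 and above it in MM.1S, and PLK1 and PRC1 were lower in MIF-KO in both lines. CCNB1 had neither TTTGAA nor TTCGAA in its 300-base window, and other forms of the CHR were not searched for. The stretches lie at chrX:70289974-70290103 (plus strand) for KIF4A, chr5:163460502-163460631 (plus) for HMMR, chr15:59105016-59105145 (plus) for CCNB2, chr16:23678759-23678888 (plus) for PLK1, chr15:90994536-90994665 (minus) for PRC1 and chr5:69167020-69167149 (plus) for CCNB1. In HMMR, 2 CHR matches abut and 2 CCAAT matches of opposite strands overlap.
KIF4A: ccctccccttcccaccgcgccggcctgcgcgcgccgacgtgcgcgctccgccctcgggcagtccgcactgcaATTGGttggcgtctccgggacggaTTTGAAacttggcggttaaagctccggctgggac
HMMR: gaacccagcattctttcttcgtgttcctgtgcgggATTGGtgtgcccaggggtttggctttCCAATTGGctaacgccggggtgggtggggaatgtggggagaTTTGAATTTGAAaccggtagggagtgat
CCNB2: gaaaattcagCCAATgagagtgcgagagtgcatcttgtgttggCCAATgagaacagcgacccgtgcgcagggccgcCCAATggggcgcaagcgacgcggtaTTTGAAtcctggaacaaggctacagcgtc
PLK1: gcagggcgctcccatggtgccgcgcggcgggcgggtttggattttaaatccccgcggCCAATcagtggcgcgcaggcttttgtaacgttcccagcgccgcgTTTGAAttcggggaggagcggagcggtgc
PRC1: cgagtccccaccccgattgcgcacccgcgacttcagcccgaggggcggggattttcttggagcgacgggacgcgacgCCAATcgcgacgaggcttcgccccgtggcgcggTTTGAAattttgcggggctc
CCNB1: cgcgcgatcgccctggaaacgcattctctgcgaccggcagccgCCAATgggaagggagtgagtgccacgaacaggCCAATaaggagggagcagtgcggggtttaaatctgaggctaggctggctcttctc

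Across the set, MIF-KO minus CTR-KO was mostly negative in ARP-1 and mostly positive in MM.1S, and small in both. In ARP-1, 29 of the 32 measured genes were lower in MIF-KO, with a median difference of -0.28 on the log2 scale and a range from -0.82 to 0.48. The upper end is PTTG1, below the filter on low signal, and the highest tested member was at 0.14. In MM.1S, 25 of the 32 were higher in MIF-KO, with a median of 0.21 and a range from -0.28 to 0.67. Among the 31 tested members, 29 were lower in ARP-1 (93.5%, against 52.3% of all tested genes) and 24 were higher in MM.1S (77.4%, against 55.1%). Over all 7442 tested genes the medians were -0.03 in ARP-1 and 0.04 in MM.1S. Each line has 1 array per condition, so these differences have no replicate check. In bulk RNA a smaller share of cells in mitosis and less transcript per mitotic cell cannot be told apart.

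The limma fit over both lines called 0 of the 31 tested members between MIF-KO and CTR-KO, and the share called among all tested genes was 0%. At an unadjusted p below 0.05 it had 0 members and 29 of the 7442 genes (0.39%). The lowest unadjusted p among the members was 0.282, for BIRC5, and all 31 had a limma adjusted p of 0.99995 or higher. Standard errors of the mean difference ran from 0.22 to 0.41, so 95% intervals reached between 0.57 and 1.07 to either side. The error of this fit joins a gene's own disagreement between the lines (1 degree of freedom) to a prior from all tested genes (3.99). Genes whose lines were close thus also had wide errors. AURKB, for instance, had 0.06 in ARP-1 and 0.07 in MM.1S with an SE of 0.27. A change of the same size and opposite sign in each line averages to nothing in this fit.

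By direction, 22 of the 31 tested members (71%) lay below CTR-KO in ARP-1 and above it in MM.1S, against 37.5% of all tested genes. A further 7 (22.6%) were lower in MIF-KO in both lines, against 14.8% of all tested genes. AURKB and KIF23 were higher in both lines (6.45%, against 17.6%), as was PTTG1 outside the test, and 0 members were higher in ARP-1 and lower in MM.1S, against 30.1%. By size the set did not stand above other genes. In ARP-1, 3 of the 31 (9.68%) were at least 1.5-fold lower in MIF-KO, where 11.9% of all tested genes were, and 0 were at least 1.5-fold higher, where 10.9% were. In MM.1S, 1 of the 31 (3.23%) was at least 1.5-fold higher, where 5.12% of all tested genes were, and 0 were at least 1.5-fold lower, where 2.89% were.

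**Figure D1:**
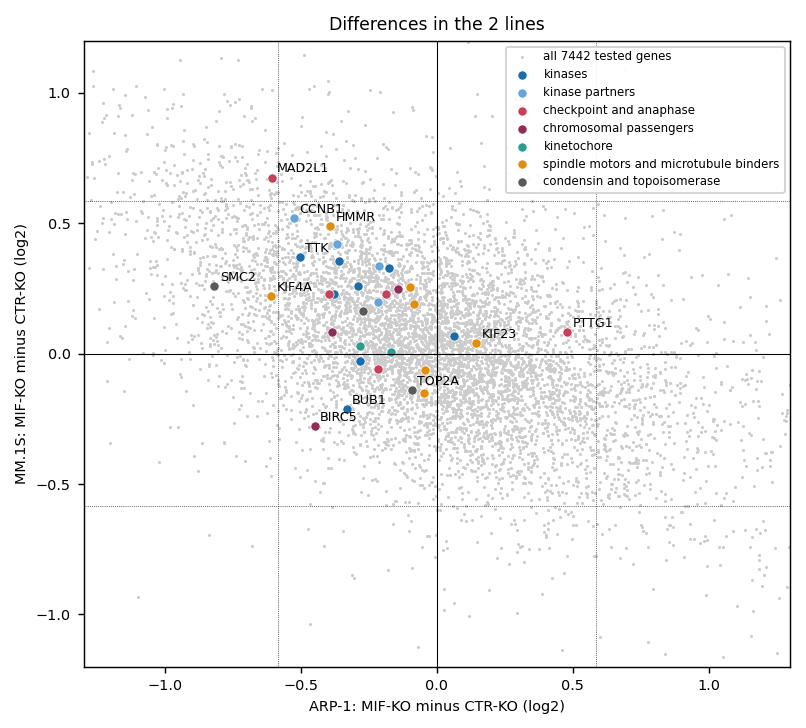
MIF-KO minus CTR-KO (log2) in ARP-1 (horizontal) and MM.1S (vertical) for the measured mitotic genes, coloured by class, over all 7442 tested genes in grey, with dotted lines at 1.5-fold; tested genes beyond the axis limits are not drawn. Of the mitotic genes, 22 lie to the upper left of the origin, and MAD2L1 is the gene past the dotted lines in both directions.

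Among the mitotic kinases, MIF-KO was the lower array for 7 of 8 in ARP-1 and the higher one for 6 of 8 in MM.1S, with medians of -0.31 and 0.24. TTK, the checkpoint kinase also named MPS1, had an intensity of 221 in MIF-KO against 313 in CTR-KO in ARP-1, and 367 in MIF-KO against 284 in CTR-KO in MM.1S. The MIF-KO arrays thus held both its lowest and its highest value, with CTR-KO between them. CDK1, the kinase that drives entry into mitosis, had 236 in MIF-KO against 303 in CTR-KO in ARP-1, and 370 against 289 in MM.1S, the same arrangement as TTK. PLK4, which controls centriole duplication, had 214 against 261 in ARP-1 and 338 against 282 in MM.1S.

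The checkpoint kinase BUB1B had 257 in MIF-KO against 334 in CTR-KO in ARP-1 and 309 against 264 in MM.1S. AURKA, the Aurora kinase of the spindle poles, had 227 against 257 in ARP-1 and 253 against 202 in MM.1S. Both were highest on the CTR-KO ARP-1 array, with MIF-KO MM.1S next. BUB1, which recruits checkpoint proteins to kinetochores, behaved otherwise: it had 892 in MIF-KO against 1123 in CTR-KO in ARP-1, and 819 in MIF-KO against 949 in CTR-KO in MM.1S. Its MIF-KO and CTR-KO arrays did not overlap, and its mean difference was -0.27 (SE 0.27, n = 2 lines; limma adjusted p of 0.99995 or higher).

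PLK1, the polo kinase of mitotic entry and exit, had 2765 in MIF-KO against 3361 in CTR-KO in ARP-1, and 2832 against 2885 in MM.1S. CTR-KO ARP-1 lay above the other 3 arrays, which were close together. AURKB, the catalytic kinase of the chromosomal passenger complex, had 955 in MIF-KO against 915 in CTR-KO in ARP-1 and 1119 against 1067 in MM.1S. MIF-KO was 104% of CTR-KO in ARP-1 and 105% in MM.1S, while MM.1S was higher than ARP-1 under both hairpins.

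All 4 partners of CDK1, its cyclins and activating phosphatase, were below CTR-KO in ARP-1 and above it in MM.1S. This class had medians of -0.29 in ARP-1 and 0.38 in MM.1S. CCNB1, the main mitotic cyclin, had 479 in MIF-KO against 691 in CTR-KO in ARP-1, and 609 in MIF-KO against 425 in CTR-KO in MM.1S. MIF-KO was thus 69.4% of CTR-KO in ARP-1 and 143% of it in MM.1S. CCNA2, the cyclin of S phase and early mitosis, had 1389 against 1795 in ARP-1 and 2003 against 1495 in MM.1S. CCNB2 had 333 against 386 in ARP-1 and 441 against 349 in MM.1S. CDC25C, the phosphatase that activates CDK1, had 107 against 124 in ARP-1 and 118 against 103 in MM.1S, the smallest difference of the class in MM.1S, at 0.20 on the log2 scale.

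Of the checkpoint and anaphase genes, 5 of 6 were measured. MAD2L1, the checkpoint protein that captures CDC20, had 272 in MIF-KO against 414 in CTR-KO in ARP-1, and 451 in MIF-KO against 282 in CTR-KO in MM.1S. It was the measured member at least 1.5-fold apart in both lines, at -0.61 in ARP-1 and 0.67 in MM.1S, as were 3.24% of all tested genes in those directions. Averaged over the lines it differed by 0.03 (SE 0.41, n = 2 lines; 95% interval -1.03 to 1.10). BUB3, its partner in the checkpoint complex, had 963 against 1097 in ARP-1 and 1226 against 1047 in MM.1S.

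CDC20, the activator of the anaphase-promoting complex, had 1141 in MIF-KO against 1328 in CTR-KO in ARP-1, and 1184 against 1234 in MM.1S, lower in MIF-KO in both. ESPL1, the separase that cuts cohesin, had 93.9 against 124 in ARP-1 and 133 against 113 in MM.1S. PTTG1, the securin that inhibits separase, had 26.3 in MIF-KO against 18.9 in CTR-KO in ARP-1, and 24.5 against 23.2 in MM.1S. These PTTG1 signals are not far above the median intensity of all probe sets, which was between 13.1 and 13.3, and the gene lay below the filter on low signal.

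The non-catalytic chromosomal passengers, which dock Aurora B at centromeres, all had the opposite sign to AURKB in ARP-1. CDCA8 (borealin) had 595 in MIF-KO against 778 in CTR-KO in ARP-1, and 693 against 655 in MM.1S. INCENP, the scaffold, had 524 against 579 in ARP-1 and 580 against 488 in MM.1S. BIRC5 (survivin), which also inhibits cell death, had 270 in MIF-KO against 369 in CTR-KO in ARP-1, and 319 in MIF-KO against 386 in CTR-KO in MM.1S. Both MIF-KO arrays of BIRC5 lay below both CTR-KO arrays. Averaged over the lines it differed by -0.36 (SE 0.30, n = 2 lines; 95% interval -1.14 to 0.41), the farthest from 0 of the 31 tested members, with a limma adjusted p of 0.99995 or higher.

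**Figure D2:**
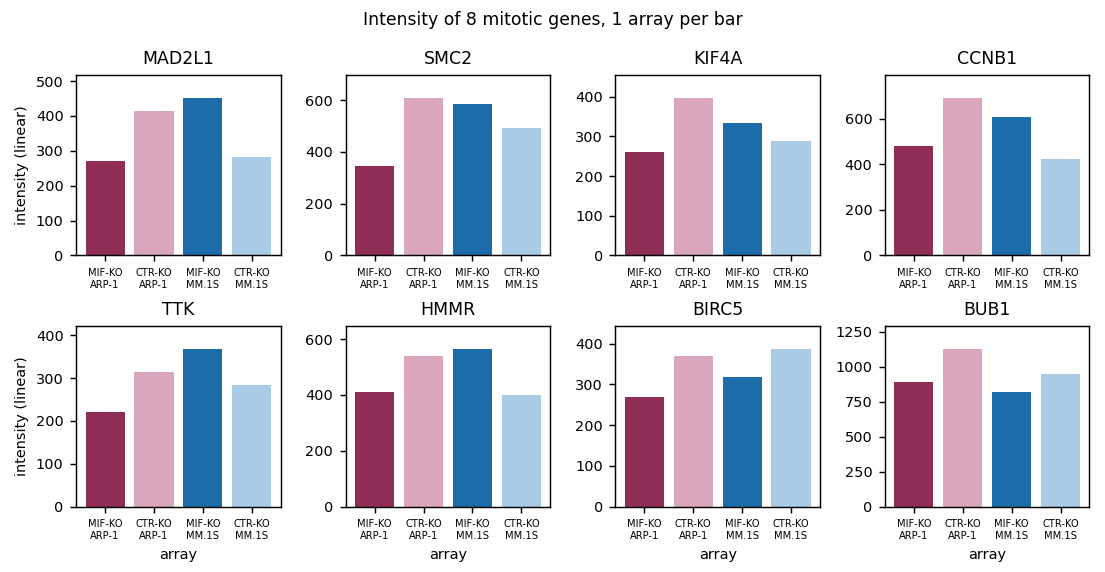
Linear intensity of MAD2L1, SMC2, KIF4A, CCNB1, TTK, HMMR, BIRC5 and BUB1, with 1 bar per array and no replicates, MIF-KO left of CTR-KO in each line and every axis starting at 0. In the first 6 genes the MIF-KO bar is the lower one in ARP-1 and the higher one in MM.1S, while BIRC5 and BUB1 are lower in MIF-KO in both lines.

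Kinetochore genes were covered by 2 of the 7 listed. NDC80, of the complex that grips microtubule ends, had 357 in MIF-KO against 434 in CTR-KO in ARP-1, and 423 against 415 in MM.1S. CENPA, the histone variant that marks centromeres, had 310 against 348 in ARP-1 and 336 against 334 in MM.1S. For both genes MIF-KO ARP-1 was the lowest array, and the MM.1S arrays differed by 0.03 or less. The sign of CENPA in MM.1S turned negative with arrays shifted to the same median and under quantile normalization.

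The spindle motors and microtubule binders had the smallest median in ARP-1, at -0.09, and a median of 0.19 in MM.1S over 7 measured genes. KIF4A, a chromosome-bound motor that shortens anaphase microtubules, had 260 in MIF-KO against 397 in CTR-KO in ARP-1, and 335 against 287 in MM.1S. Its difference in ARP-1 was -0.61 on the log2 scale, with CTR-KO ARP-1 the highest array and MIF-KO ARP-1 the lowest. HMMR, a microtubule binder of spindle poles, had 412 against 540 in ARP-1 and 563 against 401 in MM.1S, 140% of CTR-KO in MM.1S. KIF11, the motor that pushes spindle poles apart, had 1296 against 1375 in ARP-1 and 1571 against 1377 in MM.1S.

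The remaining genes of the class act at the central spindle and the centromere. KIF20A, which carries the passenger complex to the midzone, had 613 in MIF-KO against 657 in CTR-KO in ARP-1 and 641 against 537 in MM.1S. KIF23, the motor of the centralspindlin complex, had 757 against 685 in ARP-1 and 738 against 718 in MM.1S, with a range of 0.14 over the 4 arrays, the narrowest of the 32 genes. KIF2C, which dismantles wrongly attached microtubules, had 584 against 605 in ARP-1 and 598 against 664 in MM.1S. PRC1, the crosslinker of antiparallel microtubules, had 831 against 857 in ARP-1 and 949 against 992 in MM.1S. Under quantile normalization KIF2C and PRC1 turned positive in ARP-1 and KIF23 turned negative in MM.1S.

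In the condensin and topoisomerase class, 3 of 6 genes were measured. SMC2, the ATPase core subunit shared by both condensins, had 345 in MIF-KO against 608 in CTR-KO in ARP-1, and 587 in MIF-KO against 491 in CTR-KO in MM.1S. Its difference of -0.82 in ARP-1 was the largest in the set, and MIF-KO ARP-1 stood alone below the other 3 arrays. SMC4, with which SMC2 pairs, had 930 against 1124 in ARP-1 and 1259 against 1126 in MM.1S, a difference of -0.27 in ARP-1. TOP2A, the topoisomerase that untangles sister chromatids, had 1843 against 1965 in ARP-1 and 1876 against 2066 in MM.1S, lower in MIF-KO in both lines, at -0.09 and -0.14.

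**Figure D3:**
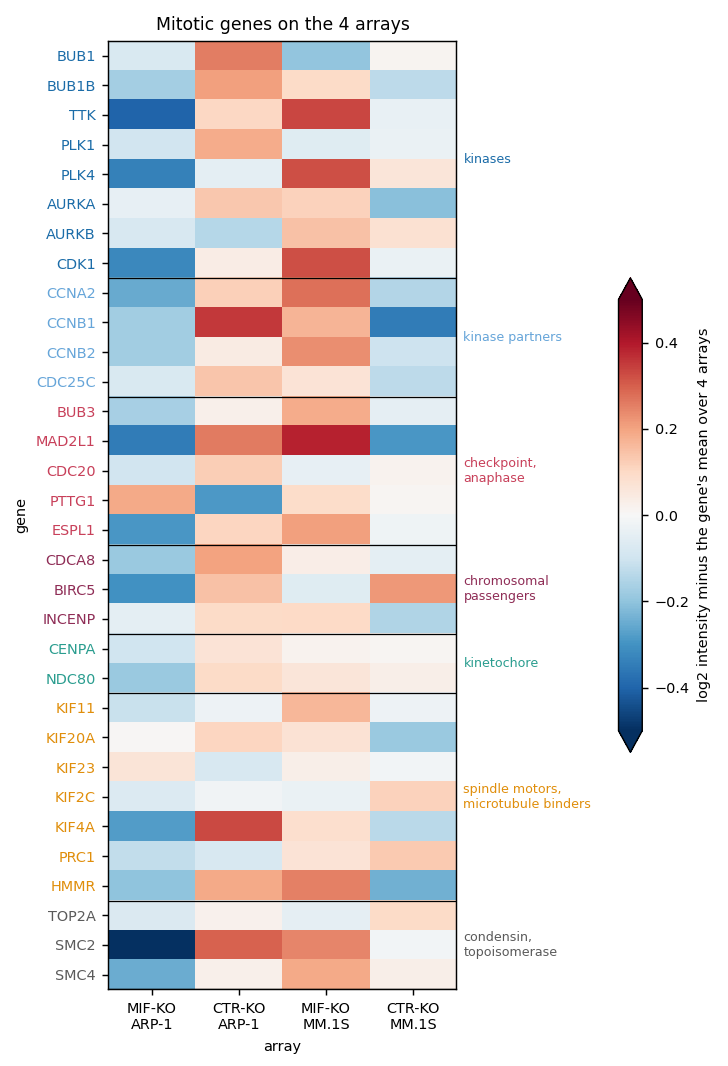
Log2 intensity of each measured mitotic gene on each array, relative to that gene's mean over the 4 arrays (colour scale from -0.5 to 0.5), grouped by class. MIF-KO ARP-1 is the lowest array for 22 of the 32 genes, and the highest array is CTR-KO ARP-1 for 13 and MIF-KO MM.1S for 13.

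Relative to each gene's mean over the 4 arrays, the median of the measured members in ARP-1 was -0.17 under MIF-KO and 0.11 under CTR-KO, and in MM.1S it was 0.10 under MIF-KO and -0.03 under CTR-KO. MIF-KO ARP-1 was the lowest array for 22 of the 31 tested members (71%), against 29.4% of all tested genes. The range over the 4 arrays had a median of 0.38 and a maximum of 0.82, against a median of 0.47 over all tested genes. The difference in MM.1S ran against that in ARP-1 across the 32 genes (Pearson r = -0.39, Spearman rho = -0.45), and also across all tested genes (r = -0.55, rho = -0.53). An exchange of the ARP-1 arrays, whose descriptions name the opposite condition, would turn the sign of these correlations, though MIF followed the titles. Genes of 1 array share its preparation and are not independent, so these values are descriptions.

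The 7 members lower in MIF-KO in both lines were BUB1, PLK1, CDC20, BIRC5, KIF2C, PRC1 and TOP2A. All but PRC1 had both MIF-KO arrays below both CTR-KO arrays, 6 of the 31 tested members (19.4%), where 9.47% of all tested genes had. KIF23 had both MIF-KO arrays above both CTR-KO arrays (3.23%, against 11.2%), as did PTTG1 outside the test. A CHR was present in 5 of the 6 promoters found for the 7 genes lower in both lines, and in 15 of the 19 found for the 22 genes of opposite direction. It began within 40 bases before the start in 2 of the 6 and 11 of the 19, and CCAAT was present in 5 and 13. These promoters are few, and a difference between the 2 groups was not tested. With the ARP-1 arrays exchanged as their descriptions have it, BUB1 had a mean difference of 0.0596 and BIRC5 of 0.0861.

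Between the lines, MM.1S exceeded ARP-1 in most members under the MIF hairpin and fell short of it in most under the control hairpin. On the MIF-KO arrays 29 of the 31 tested members were higher in MM.1S (93.5%, against 56.6% of all tested genes), with a median of 0.24 over the 32 measured. At least 1.5-fold higher there were 5 members, SMC2, TTK, MAD2L1, PLK4 and CDK1, between 0.65 and 0.77, where 8.22% of all tested genes were. On the CTR-KO arrays 22 of the 31 were lower in MM.1S (71%, against 51.6%), with a median of -0.14 over the 31. CCNB1, at -0.70, was the 1 member at least 1.5-fold lower there, where 11.1% of all tested genes were. These contrasts use the same 4 arrays as the differences above and are not further evidence. The cell line term of the limma fit called 0 of the 31 members and 0% of all tested genes. At an unadjusted p below 0.05 it had 0 members and 87 of 7442 genes (1.17%).

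Both MM.1S arrays lay above both ARP-1 arrays for 5 of the 31 tested members (16.1%, against 15.8% of all tested genes), and both lay below for 0 members, against 11.6%. The first share is at the background. The 5 were PLK4, AURKB, KIF11, PRC1 and SMC4, and under CTR-KO the lines were level for KIF11 (1377 in MM.1S against 1375 in ARP-1) and SMC4 (1126 against 1124). PLK4 had the largest mean difference, 0.39 higher in MM.1S (SE 0.32, n = 2 conditions; limma adjusted p of 0.99986 or higher). TTK was 0.30 and CDK1 0.29 higher in MM.1S on average, but under CTR-KO alone MM.1S minus ARP-1 was -0.14 for TTK and -0.07 for CDK1.

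Other mitotic genes, a separate list of 64 of which 49 were measured, had median differences of -0.34 in ARP-1 and 0.31 in MM.1S. In ARP-1, 42 of the 49 were below CTR-KO, where 52.3% of all tested genes were, and 16 by at least 1.5-fold, where 11.9% were. In MM.1S, 41 of the 49 were above CTR-KO, where 55.1% of all tested genes were, and 6 by at least 1.5-fold, where 5.12% were. Of the 48 tested, limma called 0, against 0% of all tested genes, and 0 had an unadjusted p below 0.05, against 0.39%. The genes farthest apart in either line are given. CENPW, a constitutive centromere protein, had 87.2 in MIF-KO against 222 in CTR-KO in ARP-1, and 202 against 144 in MM.1S. CENPH, of the same centromere network, had 79.8 against 147 in ARP-1 and 203 against 80.4 in MM.1S, and its partner CENPI had 96.7 against 187 in ARP-1 and 193 against 140 in MM.1S.

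SKA3, of the complex that tracks microtubule ends beside NDC80, had 307 in MIF-KO against 690 in CTR-KO in ARP-1, and 463 against 441 in MM.1S. CDCA2, which brings a phosphatase to anaphase chromatin, had 131 against 248 in ARP-1 and 236 against 199 in MM.1S. MELK, a kinase of dividing cells, had 222 against 354 in ARP-1 and 436 against 233 in MM.1S. CDCA5 (sororin), which protects cohesion, had 78.6 against 138 in ARP-1 and 104 against 99.0 in MM.1S. In all 7 of these genes MIF-KO ARP-1 was the lowest array, but they were picked for large differences. Over the whole list it was the lowest for 40 of the 49 measured, against 29.4% of all tested genes.

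The regulators of mitotic transcription and the anaphase-promoting complex, 21 measured of 26 listed, had medians of -0.25 in ARP-1 and 0.09 in MM.1S. Of the 21, 17 were below CTR-KO in ARP-1, where 52.3% of all tested genes were, and 15 above it in MM.1S, where 55.1% were. Limma called 0 of them and 0% of all tested genes. At an unadjusted limma p below 0.05 there were 0 of them and 0.39% of all tested genes. MYBL2, the B-MYB factor that binds CHR promoters with MuvB, had 724 in MIF-KO against 1357 in CTR-KO in ARP-1, and 1319 in MIF-KO against 951 in CTR-KO in MM.1S. FOXM1, which acts on the same promoters later in the cycle, had 576 against 592 in ARP-1 and 787 against 728 in MM.1S, and was named after its values were seen. MYBL2 thus was lower in MIF-KO in ARP-1 and higher in it in MM.1S, while FOXM1 differed more between the lines than between the hairpins.

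DNA replication helicase and fork genes, which act in S phase, are given for comparison. All 20 measured were below CTR-KO in ARP-1 and above it in MM.1S, where 37.5% of all tested genes were. Their medians were -1.08 and 0.80, against -0.28 and 0.21 for the mitotic genes. A CHR was present in 1 of the 17 promoters found for them (5.88%) and CCAAT in 13 (76.5%). No test of the difference between the lists was made, since genes of 1 array are not replicates.

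**Figure D4:**
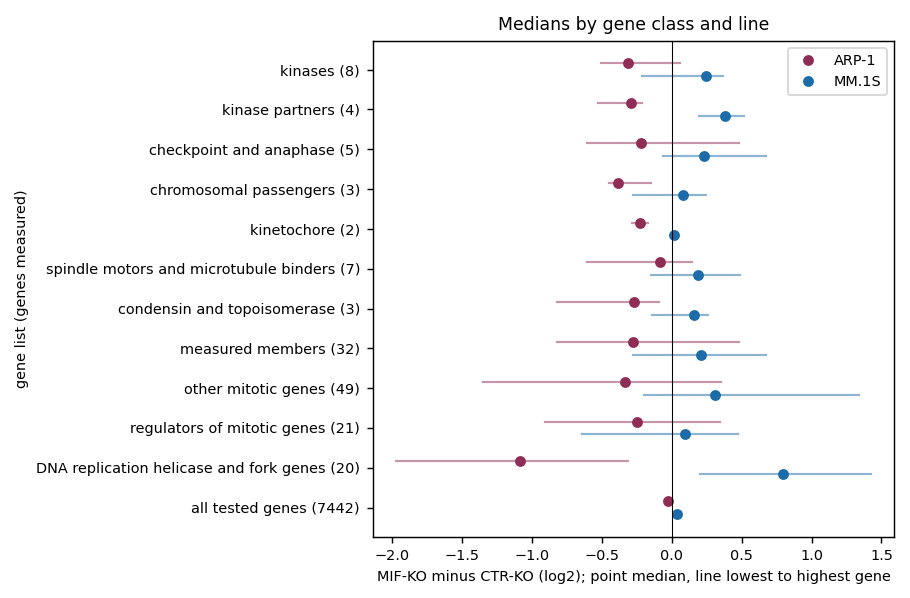
Median MIF-KO minus CTR-KO (log2) of each gene class in ARP-1 and MM.1S, with lines from the lowest to the highest gene (not drawn for all tested genes) and the number of genes measured in parentheses. Every mitotic class has a negative median in ARP-1 and a positive one in MM.1S, and the DNA replication genes lie farther out than any of them. For the 2 kinetochore genes the MM.1S median is only 0.02, and the sign of CENPA there depends on the scaling.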

How the data were processed

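Per the submitters' processing notes, RMA and limma were used, without versions or roles. The annotation and build they used are not stated in the labels. The authors deposited linear intensities for 53617 probe sets on 4 arrays (range 2.74 to 15935), and log2 was taken with no offset. The values come without detection calls, and having 4 arrays limits the precision.

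GEO's platform annotation names 1 gene for 16098 probe sets. The other 37519, with no gene named or several, were left out. A gene was tested if its mean log2 value reached the median over genes (4.97). The fit was limma 3.58.1 (R 4.3.3) with terms for cell line and condition and eBayes with a trend. It has 1 residual degree of freedom and 3.99 from the prior. The cell line, taken from the labels, pairs the arrays. P-values were adjusted over the 7442 tested genes by Benjamini-Hochberg (threshold 0.05). P-values measure only the spread between these samples, which may be technical. The model was also run on simulated data in which each change had the same size and sign in both lines. Changes of opposite sign in the lines, as in most members here, were not simulated.

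The members and lists were chosen with earlier results of these data known. Values are given for every measured member; of other genes, MIF, markers, and the 8 of largest difference in either line among the other mitotic genes and regulators are given, and FOXM1 was added after its values were seen. Alternatives covered the filter, scaling, offset, probe sets, variance trend, model terms, left-out arrays and an exchange of the ARP-1 arrays.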

Additional observations from a re-analysis of the deposited data

Results flagged for a closer look

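The lines differed in sign in the following results, each given as the difference in MM.1S minus the difference in ARP-1 (both MIF-KO minus CTR-KO, log2). Opposite signs were also common over all tested genes. Of these, 37.5% were lower in ARP-1 and higher in MM.1S, and 30.1% were the reverse. Of the 31 tested members 71% had the first arrangement and 0 had the second. With 1 array per line and condition the difference between the lines was not tested. With the ARP-1 arrays exchanged, as their descriptions have it, the signs in ARP-1 turn. The contrast was 0.49 between the medians of the measured members, and by class it was 0.56 for kinases, 0.67 for kinase partners, 0.45 for checkpoint and anaphase genes, 0.47 for chromosomal passengers, 0.24 for kinetochore genes, 0.28 for spindle motors and microtubule binders and 0.43 for condensin and topoisomerase genes.

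The same contrast was above 1 for MAD2L1 (1.28), SMC2 (1.08) and CCNB1 (1.05). It was 0.88 for HMMR, 0.87 for TTK, 0.83 for KIF4A, 0.79 for CCNA2 and 0.71 for CDK1. It was 0.63 for ESPL1, 0.61 for BUB1B, 0.55 for PLK4, 0.55 for CCNB2 and 0.50 for AURKA. The smaller values were 0.47 for CDCA8, 0.43 for SMC4, 0.42 for BUB3, 0.41 for CDC25C, 0.39 for INCENP, 0.36 for KIF20A, 0.31 for NDC80, 0.28 for KIF11 and 0.17 for CENPA.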

How the results depend on the processing

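Limma called 0 members between conditions and 0 between lines under each filter, scaling, offset and probe set rule, without the variance trend and with the ARP-1 arrays exchanged. It also called 0 between conditions without the cell line term (no replicate block) and 0 between lines without the condition term, and no such count was made with an array left out. With the ARP-1 arrays exchanged limma called 401 of 7442 genes between conditions, 0 of them among the 31 tested members. At the share called over all tested genes few of 31 would be, so this 0 does not set the members apart. That exchange turned the median difference of the measured members to 0.21 over both lines and to 0.28 in ARP-1, and the mean differences to 0.0596 for BUB1, 0.0861 for BIRC5, 0.54 for SMC2 and 0.41 for KIF4A. MAD2L1 then had 0.64 in place of 0.03, with a limma adjusted p of 0.0599, while MIF had -0.15 in place of -1.17. The median over both lines, -0.03 with all arrays, ranged from -0.28 without an MM.1S array to 0.21 without an ARP-1 array, since the remaining pair then gives the value. Over the filters, scalings, offset and probe set rules the median ran from -0.29 to -0.22 in ARP-1 and from 0.17 to 0.22 in MM.1S. With the offset of 16 or under quantile normalization 1 member, in place of 3, was at least 1.5-fold lower in MIF-KO ARP-1.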
